A study of Rattus norvegicus with 6 samples.

Results

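The genes described here are 9 genes of the FK506-binding proteins (FKBPs) and Ppib, which encodes cyclophilin B, measured in UMR106-01 cells, a rat osteosarcoma line with osteoblast properties. They were selected by name: a probe set was taken where the platform annotation gave exactly 1 gene symbol, equal to Fkbp1a, Fkbp2, Fkbp4, Fkbp5, Fkbp7, Fkbp9, Fkbp10, Fkbp11, Fkbp14 or Ppib. This gave 15 probe sets for 10 genes, of 14217 genes with such a probe set in the series, and all 10 genes and 15 probe sets were bright enough to be tested, among 9864 genes and 18625 probe sets. The names were proposed with the AEBSF comparison in view, so the values of these 10 genes in that comparison are a description, and no p-value is given for any of them. The series holds 3 cultures with AEBSF and 3 mineralizing cultures, with 1 Affymetrix array per culture. All 6 cultures were plated in medium with 10% fetal bovine serum, re-fed at 64 h with 6.5 mM beta-glycerol phosphate, an organic phosphate from which the cells form mineral, and collected at 76 h. The AEBSF cultures differed by the addition of AEBSF, an irreversible serine protease inhibitor, at 400 µM for the last 12 h. The cultures are of a single tumour cell line, and the groups hold no culture without beta-glycerol phosphate.

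Peptidyl-prolyl isomerases turn the peptide bond before proline between its cis and trans forms, a slow step in the folding of proline-rich proteins such as collagen. FKBPs are the isomerases bound by the drug FK506, and cyclophilins are those bound by cyclosporin. Members that reside in the endoplasmic reticulum (ER) meet secreted proteins as they fold, which in osteoblasts are largely procollagen, whereas the cytosolic members act on kinases, calcium channels and, together with the chaperone Hsp90, on steroid hormone receptors. The comparison is between the 7 ER-resident genes (Fkbp2, Fkbp7, Fkbp9, Fkbp10, Fkbp11, Fkbp14 and Ppib) and the 3 cytosolic ones (Fkbp1a, Fkbp4 and Fkbp5).

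The values are MAS5 signals, brightness per probe set on a linear scale after each array was scaled to the same trimmed mean, so a fold change is relative to the array as a whole. The median log2 fold change, AEBSF over mineralizing, of all 9864 genes tested was 0.002. It was -0.144 when the arrays were scaled to their 18 spiked hybridization control probe sets, and the probe sets past an adjusted p of 0.05 were then 119 higher and 2457 lower, against 1115 higher and 1380 lower as deposited. Of 10 osteoblast markers, 7 lay above the signal filter, Alpl, Ibsp, Col1a1, Pth1r, Phex, Dlx5 and Sparc, 2 were not analysed here and Bglap lay below it. Their summed signal was 26035 to 27032 on AEBSF arrays and 27089 to 28605 on mineralizing arrays, which do not overlap. Of 24 measured markers of cartilage, fat, macrophages, endothelium and muscle, 5 lay above the filter. The summed signal of the 5 macrophage markers was 181 to 190 on AEBSF arrays and 226 to 312 on mineralizing arrays, also without overlap, with Csf1r alone above the filter; the sums of the other 4 sets overlapped between the groups. The part of any of these markers in the results was not tested.

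All 7 ER-resident genes had a lower mean log2 signal with AEBSF, with a median log2 fold change of -0.29 and a range of -1.0 to -0.06. All 3 cytosolic genes had a higher one, with a median of 0.20 and a range of 0.05 to 0.50. The ER-resident minus the cytosolic median was -0.49, and among these genes the classes did not overlap. Of the other Fkbp genes tested, Fkbp8, Fkbpl and Fkbp3 were at -0.23, -0.14 and -0.08, within the ER-resident range, and Fkbp15 was at 0.27. None of them was past an adjusted p of 0.05 as deposited. Fkbp8 was past it and lower with the hybridization control scaling, and also without mineralizing culture 3. In the limma fit across all 18625 probe sets, 5 of the 7 ER-resident genes were past an adjusted p of 0.05 and lower with AEBSF, and 1 of the 3 cytosolic genes was past it and higher; over all genes tested 9.22% were past it and lower and 7.09% past it and higher. These counts, and the calls of members given below under any setting, come from the comparison the names were proposed on. They are not evidence of a direction. In 5 ER-resident genes all AEBSF values lay below all mineralizing values, and in 2 cytosolic genes all lay above; over all genes tested this held for 19.1% in the lower and 17.0% in the higher direction. Taking each gene relative to its mineralizing mean, the median ER-resident gene stood at -0.18, -0.31 and -0.39 on the log2 scale on AEBSF arrays 1, 2 and 3, against -0.01, -0.02 and 0.01 on mineralizing arrays 1, 2 and 3. The median cytosolic gene stood at 0.27, 0.17 and 0.17 on the AEBSF arrays, against -0.01, -0.02 and 0.04 on the mineralizing arrays. In RNA from whole cultures, fewer cells expressing a gene and less of its RNA per cell cannot be told apart. With the hybridization control scaling the medians were -0.44 for the ER-resident and 0.06 for the cytosolic genes, each measured against an all-gene median of -0.144.

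**Figure D1:**
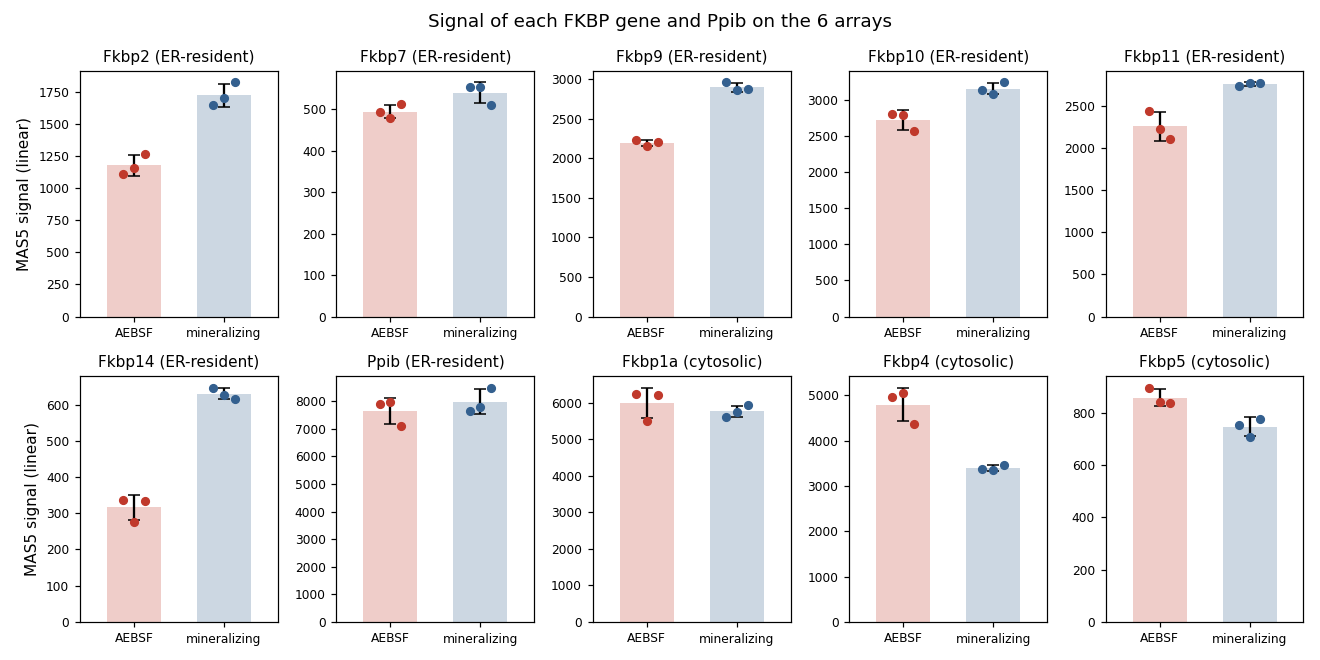
MAS5 signal (y axis, linear, from 0) of the 10 genes, 1 panel per gene, each by the probe set that stands for the gene; points are the 3 arrays of a group, bars the mean and error bars the SD. The AEBSF points lie wholly below the mineralizing points for Fkbp2, Fkbp9, Fkbp10, Fkbp11 and Fkbp14, wholly above them for Fkbp4 and Fkbp5, and overlap them for Fkbp7, Ppib and Fkbp1a.

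The start regions of 3 of the genes are shown because they mark the range of the response: Fkbp14 was the lowest of the ER-resident genes, Ppib the one nearest to 0, and Fkbp4 the highest of the cytosolic genes. Each runs 5′ to 3′ on the strand of the gene from 250 bases before to 50 bases after the annotated start, from RefSeq on GRCr8, at chr4:85051712-85052011 (minus strand) for Fkbp14, chr8:75498716-75499015 (plus strand) for Ppib and chr4:163397869-163398168 (minus strand) for Fkbp4. Capitals mark CCAAT and CCACG on either strand, so that ATTGG and CGTGG are their reverse complements; they are the 2 ends of the ER stress response element, through which the factors ATF6 and XBP1 act on ER chaperone genes.
Fkbp14: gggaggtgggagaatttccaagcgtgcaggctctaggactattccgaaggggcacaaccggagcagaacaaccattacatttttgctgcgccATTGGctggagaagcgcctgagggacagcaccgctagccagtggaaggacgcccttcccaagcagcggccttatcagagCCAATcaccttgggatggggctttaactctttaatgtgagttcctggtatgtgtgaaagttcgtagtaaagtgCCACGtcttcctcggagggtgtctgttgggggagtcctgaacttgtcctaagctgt
Ppib: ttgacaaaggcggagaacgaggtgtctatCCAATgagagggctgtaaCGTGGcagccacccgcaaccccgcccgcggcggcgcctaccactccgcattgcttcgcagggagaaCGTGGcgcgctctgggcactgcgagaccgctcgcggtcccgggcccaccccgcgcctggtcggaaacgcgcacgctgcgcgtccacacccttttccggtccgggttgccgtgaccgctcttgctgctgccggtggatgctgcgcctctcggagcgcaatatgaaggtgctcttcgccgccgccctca
Fkbp4: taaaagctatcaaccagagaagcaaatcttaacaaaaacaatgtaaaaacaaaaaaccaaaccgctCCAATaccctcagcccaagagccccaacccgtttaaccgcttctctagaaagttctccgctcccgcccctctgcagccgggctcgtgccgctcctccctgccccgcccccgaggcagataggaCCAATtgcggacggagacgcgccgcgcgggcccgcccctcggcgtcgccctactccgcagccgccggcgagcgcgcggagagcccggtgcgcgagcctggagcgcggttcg
Sequences were found for 9 of the 10 genes. The whole element, CCAAT and CCACG with 9 bases between them, read on both strands, was in 0 of the 9 windows and in 0.0657% of all 33469 RefSeq windows of this length, those of the ER chaperone genes Hspa5, Hsp90b1 and Calr among them. Its compact form, ATTGG and CCACG with 1 base between them, was in 0 of 9 (0.0508% of all windows), the XBP1 motif TGACGTGG in 0 of 9 (0.595%), the heat shock element of GAA, TTC and GAA with 2 bases between each in 0 of 9 (0.798%), and the glucocorticoid response element of AGAACA and TGTTCT with 3 bases between them in 0 of 9 (0.0149%). CCAAT alone, which on either strand is part of the whole and the compact element, was in 5 of the 9 windows (37.5% of all) and CCACG alone, which is part of these and of the XBP1 motif, in 4 of the 9 (31.6%). Fkbp14 held CCAAT on both strands, at bases -158 to -154 and -79 to -75 from the start, and CCACG at -6 to -2. These are matches of letters within a short window and not sites of binding.

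Among the ER-resident genes, those known to work on collagen lay at both ends of the range. Fkbp14, an ER isomerase that binds several collagen types and whose loss in people causes a kyphoscoliotic form of Ehlers-Danlos syndrome, had signals of 337, 277 and 334 with AEBSF, against 647, 628 and 617 in mineralizing cultures. The groups were far apart, and the highest AEBSF value lay well below the lowest mineralizing one. The means were 316 ± 33.8 with AEBSF and 631 ± 15.3 in mineralizing cultures (SD, n = 3 cultures each), a 2.00-fold lower signal with AEBSF (log2 fold change -1.0, SE 0.10), and Fkbp14 ranked 25 from the lowest of 9864 genes.

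Fkbp10, a procollagen chaperone that also supports lysyl hydroxylation of collagen and whose loss in people causes osteogenesis imperfecta and Bruck syndrome, had signals of 2804, 2791 and 2564 with AEBSF, against 3138, 3082 and 3236 in mineralizing cultures. The groups did not overlap, but the gap between them was small. The means were 2720 ± 135 with AEBSF and 3152 ± 78.4 in mineralizing cultures (SD, n = 3), a log2 fold change of -0.21 (SE 0.06), which ranked 1830 from the lowest. Fkbp10 was no longer past the adjusted p of 0.05 without AEBSF culture 3 or without any of mineralizing cultures 1, 2 and 3, where its log2 fold change was -0.17, -0.22, -0.23 and -0.19. It was also not past it with a constant variance prior, with median centring or when the filter was dropped.

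Ppib, which joins P3h1 and Crtap in the complex that 3-hydroxylates collagen prolines, had signals of 7897, 7962 and 7087 with AEBSF, against 7640, 7796 and 8491 in mineralizing cultures. The groups overlapped, with 2 of the AEBSF values above 2 of the mineralizing ones. The means were 7649 ± 487 with AEBSF and 7976 ± 453 in mineralizing cultures (SD, n = 3), with a log2 fold change of -0.06 (SE 0.06), and Ppib was not past the threshold. Its partner P3h1 was, with signals of 873, 783 and 722 with AEBSF, against 1020, 928 and 979 in mineralizing cultures (log2 fold change -0.30 with an SE of 0.08; limma adjusted p = 0.0325), and Crtap lay below the signal filter. The P3h1 call was lost with no filter and without AEBSF culture 2 or 3 or mineralizing culture 1, 2 or 3 (limma adjusted p = 0.0673, 0.0796, 0.127, 0.0603 and 0.0874).

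The remaining ER-resident genes lay between these. Fkbp2, a small FKBP of the ER lumen, had signals of 1109, 1155 and 1271 with AEBSF, against 1646, 1703 and 1825 in mineralizing cultures, groups that lay well apart. The log2 fold change was -0.55 (SE 0.07), a 1.46-fold lower signal with AEBSF. Its other probe sets are both of kinds whose probes can bind other transcripts. The one of similar brightness gave 1200, 964 and 1213 with AEBSF, against 1582, 1802 and 1758 in mineralizing cultures (log2 fold change -0.61, SE 0.09). The remaining one, which was dimmer, gave 348, 325 and 350 with AEBSF, against 327, 374 and 322 in mineralizing cultures, overlapping groups with a log2 fold change of 0.00 (SE 0.11). The probe sets of Fkbp2 thus disagree, and averaging them gave a log2 fold change of -0.39. RefSeq also annotates a gene Fkbp2l1 whose start window, by its coordinates, overlaps that of Fkbp2 by 253 bases. Whether the probes also bind its transcripts was not tested.

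Fkbp9, an ER FKBP built of repeated isomerase domains, had the tightest values, 2227, 2156 and 2202 with AEBSF, against 2958, 2859 and 2872 in mineralizing cultures. Its pooled SD within groups was 0.025 on the log2 scale, against a median of 0.110 over all genes tested, and the groups lay far apart relative to it. The means were 2195 ± 35.8 with AEBSF and 2896 ± 53.8 in mineralizing cultures (SD, n = 3), a 1.32-fold lower signal with AEBSF (log2 fold change -0.40, SE 0.05). Fkbp11, a membrane-anchored ER FKBP found in secretory cells, had signals of 2443, 2222 and 2104 with AEBSF, against 2738, 2768 and 2771 in mineralizing cultures. Its AEBSF values had an SD of 172 and its mineralizing values an SD of 18.2, and all AEBSF values were lower. The log2 fold change was -0.29 (SE 0.06), and Fkbp11 was not past the threshold with a constant variance prior. Fkbp7, an ER FKBP that binds the chaperone BiP, overlapped between the groups, at 492, 479 and 511 with AEBSF, against 554, 553 and 510 in mineralizing cultures (log2 fold change -0.13, SE 0.09), and was not past the threshold.

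The cytosolic genes known as Hsp90 co-chaperones stood highest. Fkbp4, which assists hormone binding and transport of steroid receptors on Hsp90, had signals of 4963, 5056 and 4369 with AEBSF, against 3374, 3342 and 3461 in mineralizing cultures. All AEBSF values lay well above all mineralizing ones. The means were 4796 ± 372 with AEBSF and 3392 ± 61.2 in mineralizing cultures (SD, n = 3), a 1.41-fold higher signal with AEBSF (log2 fold change 0.50, SE 0.06), which ranked 138 from the highest of 9864 genes. With the hybridization control scaling the log2 fold change was 0.35 and was still past the threshold.

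Fkbp5, which restrains hormone binding by the glucocorticoid receptor and is itself induced by glucocorticoids, had signals of 896, 841 and 836 with AEBSF, against 755, 706 and 777 in mineralizing cultures. The AEBSF values were all higher, by a narrow gap, and Fkbp5 was not past the threshold (log2 fold change 0.20, SE 0.07). Its dimmer probe set gave a like value of 0.21 (SE 0.10), with groups that overlapped. With the hybridization control scaling the value of Fkbp5 was 0.06.

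Fkbp1a, the main target of FK506 and rapamycin, which also binds calcium release channels and type I receptors of the TGF-beta family, had signals of 6252, 5508 and 6220 with AEBSF, against 5618, 5738 and 5937 in mineralizing cultures. The groups overlapped, since AEBSF culture 2 was lower than every mineralizing culture (log2 fold change 0.05, SE 0.06). Of its other probe sets, 1 gave 4910, 5020 and 4741 with AEBSF, against 4293, 4514 and 4467 in mineralizing cultures, groups that did not overlap (0.14, SE 0.05), and 1 gave overlapping groups (0.02, SE 0.07). None of the 3 probe sets was past the adjusted p of 0.05, and with the hybridization control scaling the value of Fkbp1a was -0.09.

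**Figure D2:**
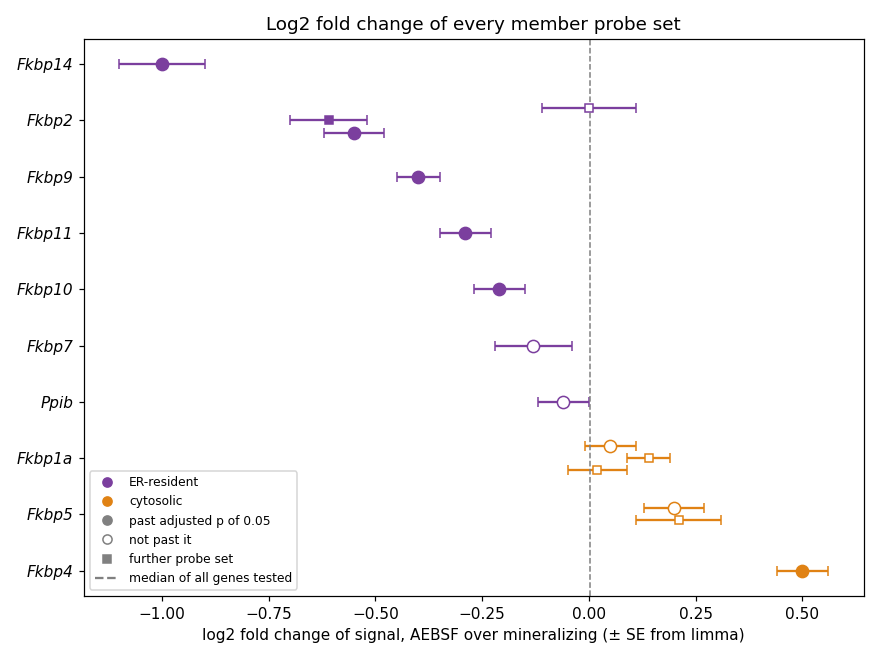
Log2 fold change of signal, AEBSF over mineralizing, with its SE from limma (x axis), for all 15 probe sets of the 10 genes (y axis), coloured by class; circles stand for the gene, squares are further probe sets, and filled symbols are past an adjusted p of 0.05. The ER-resident genes run from -1.0 for Fkbp14 to -0.06 for Ppib and the cytosolic genes from 0.05 for Fkbp1a to 0.50 for Fkbp4, while a further, dimmer probe set of Fkbp2 lies at 0.00.

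Other prolyl isomerases, 26 genes listed from textbook knowledge, passed the test at about the share of all genes. This list and those that follow were chosen with earlier results of these data known, so their counts are descriptions. Of 19 tested, 2 rose and 1 fell with AEBSF, with a median log2 fold change of 0.06; 16.3% of all genes tested passed in either direction. The gene that fell was Ppic, cyclophilin C, which like Ppib enters the secretory pathway, with signals of 3453, 3462 and 3379 with AEBSF, against 4518, 4611 and 4772 in mineralizing cultures (log2 fold change -0.43 with an SE of 0.05; limma adjusted p = 0.000424). The groups were far apart. Ppid, a cytosolic cyclophilin that like Fkbp4 and Fkbp5 binds Hsp90, rose, with 7329, 7270 and 7640 with AEBSF, against 5437, 6005 and 5900 in mineralizing cultures (0.36, SE 0.05, limma adjusted p = 0.00183). Its call was lost with the hybridization control scaling (log2 fold change 0.21). Cwc27, a cyclophilin of the spliceosome, also rose (0.33, SE 0.09, limma adjusted p = 0.0346), a call lost with the hybridization control scaling, median centring, no filter and a constant variance prior, and without AEBSF culture 1 or 3 or mineralizing culture 1, 2 or 3 (limma adjusted p = 0.0895, 0.0943, 0.102, 0.0648 and 0.106).

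A list here called the Hsp90 partners, of Hsp90 genes, co-chaperones and steroid receptors, rose in part. It also holds the Hsp90 genes of the ER and of mitochondria, which lie apart from the cytosolic Fkbp4 and Fkbp5. The counts and the median are of the whole list. Of 12 tested genes of this list, 6 rose and 1 fell, against 7.09% of all genes tested that rose and 9.22% that fell, and the median log2 fold change was 0.19. The list was chosen with earlier results known, so this count is a description. Stip1, which passes client proteins between the chaperones Hsp70 and Hsp90, rose, with signals of 5445, 5785 and 5270 with AEBSF, against 3546, 3592 and 3631 in mineralizing cultures (log2 fold change 0.61 with an SE of 0.05; limma adjusted p = 5.79e-05). Its groups lay far apart. Ahsa1, which activates the ATPase of Hsp90, rose 1.31-fold, Ppp5c, a phosphatase bound to Hsp90, rose 1.25-fold, Cdc37, which brings kinases to Hsp90, rose 1.22-fold and Ptges3, the co-chaperone p23, rose 1.17-fold (limma adjusted p = 0.00508, 0.00986, 0.0056 and 0.0164). The 6th gene that rose was Dnaja1, an Hsp70 co-chaperone (0.22, SE 0.05), a call lost with median centring and without AEBSF culture 2 or 3 or mineralizing culture 1 or 2. Its other probe set was at -0.02 (limma adjusted p = 0.837), and averaging both gave 0.10, which did not pass (limma adjusted p = 0.241). Hsp90ab1 itself, a cytosolic Hsp90, had 19863, 20500 and 19614 with AEBSF, against 16869, 17512 and 19450 in mineralizing cultures, and did not pass (0.16, SE 0.06), nor did the glucocorticoid receptor Nr3c1 (0.01, SE 0.08). The gene that fell was Hsp90b1, the Hsp90 of the ER lumen, with 9764, 9437 and 9894 with AEBSF, against 11655, 12079 and 12990 in mineralizing cultures (-0.33, SE 0.06, limma adjusted p = 0.00284). With the hybridization control scaling only Stip1 rose and Hsp90b1 fell. With a constant variance prior Ahsa1, Cdc37, Ptges3, Dnaja1 and Hsp90b1 did not pass, and the Ptges3 call was also lost with median centring and without AEBSF culture 1 or 3 or mineralizing culture 1 or 2 (limma adjusted p = 0.0527, 0.0517, 0.0613 and 0.0558).

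A list of genes that act on collagen beside the ER isomerases, with the type I collagen chains and general ER chaperones, fell in part. Of 15 tested, 8 fell and 0 rose, against 9.22% of all genes tested that fell and 7.09% that rose, with a median log2 fold change of -0.19. Since earlier results were known when the list was chosen, this count is a description. Plod2, the lysyl hydroxylase that Fkbp10 supports, fell, with signals of 4504, 3992 and 4076 with AEBSF, against 5389, 5597 and 6037 in mineralizing cultures (log2 fold change -0.44 with an SE of 0.06; limma adjusted p = 0.00132). The groups did not overlap. On the log2 scale the type I collagen chain Col1a2 fell by 1.13, its partner Col1a1 fell by 0.67, the prolyl 4-hydroxylase subunit P4ha2 fell by 0.58, the lysyl hydroxylase Plod1 fell by 0.39 and the ER chaperone Calr fell by 0.32. Serpinh1, a collagen-specific chaperone, did not pass (0.05, SE 0.07), nor did P4hb, the other prolyl 4-hydroxylase subunit (-0.01, SE 0.06). The ER chaperone Hspa5 did not pass either (-0.02, SE 0.06), and its groups overlapped. With a constant variance prior Calr, Plod1, P3h1 and P4ha1 did not pass. Besides P3h1, P4ha1 fell by 0.19, a call lost with median centring, with no filter and when any of the 6 arrays was left out (limma adjusted p = 0.0637 to 0.133).

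Genes known as targets of the glucocorticoid receptor, which also induces Fkbp5, passed at about the share of all genes, of which 7.09% rose and 9.22% fell. The median log2 fold change of the 9 tested was -0.18, with 7 below 0 and 2 above. Among them 0 rose and 1, Tsc22d3, which encodes a glucocorticoid-induced leucine zipper protein, fell (log2 fold change -0.30 with an SE of 0.08, limma adjusted p = 0.0298). That call was lost with median centring, with no filter, with a constant variance prior and without AEBSF culture 2 or mineralizing culture 1, 2 or 3 (limma adjusted p = 0.0699, 0.0837, 0.097 and 0.073). Mt2A, a metallothionein, was at -0.34 (SE 0.13), the phosphatase gene Dusp1 at -0.21 (SE 0.11) and Ddit4, an inhibitor of mTOR signalling, at -0.12 (SE 0.07), and these did not pass. Mt2A fell without AEBSF culture 1 (-0.50, limma adjusted p = 0.0195). Of 15 tested partners of Fkbp1a, 0 rose and 1 fell, against the same shares of 7.09% and 9.22% over all genes; the gene that fell was the calcium release channel Itpr1, at 1304 ± 28.5 with AEBSF and 1833 ± 53.2 in mineralizing cultures (SD, n = 3; log2 fold change -0.49 with an SE of 0.06; limma adjusted p = 0.000459). The kinase receptor Tgfbr1 and the calcineurin subunits Ppp3ca and Ppp3r1 did not pass (-0.01, 0.04 and 0.11).

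**Figure D3:**
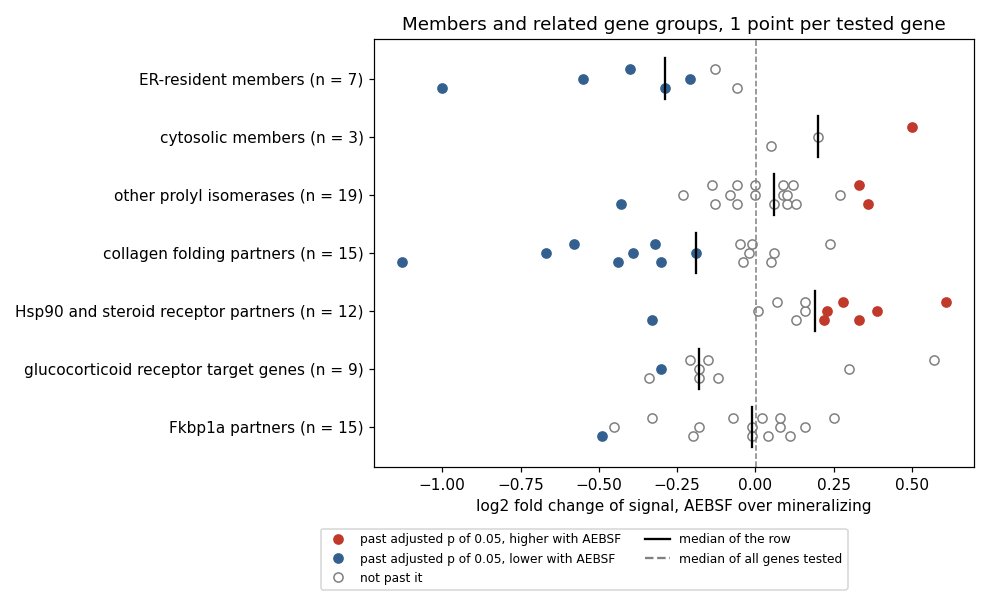
Log2 fold change of signal, AEBSF over mineralizing (x axis), of each tested gene in 7 groups (y axis); filled points are past an adjusted p of 0.05, open points are not, black lines are group medians and the dashed line is the median of all genes tested. Medians lie at -0.29 for the ER-resident and 0.20 for the cytosolic genes, at 0.19 for the Hsp90 partners, with Hsp90b1 apart at -0.33, and at -0.19 for the collagen folding partners. They lie at -0.18 for the glucocorticoid receptor targets, 0.06 for the other prolyl isomerases and -0.01 for the Fkbp1a partners.

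Genes with the most similar profile were sought by the root mean square difference over the 6 arrays between log2 signals, each centred on the mean of its gene. Nearest to Fkbp14 were the stress-induced gene Nupr1 (0.046), the tenascins Tnn and Tnc (0.056 and 0.061), Vwa8 (0.070) and Enpp2, which encodes the secreted enzyme autotaxin (0.077), whose log2 fold changes were -1.02, -0.98, -0.93, -0.90 and -0.92. Nearest to Fkbp4 were the ribosome biogenesis genes Bop1 and Tbl3 (0.033 and 0.047), the proteasome subunit Psmd1 (0.035), the ubiquitin-conjugating enzyme Ube2n (0.036) and Trim35 (0.043), with log2 fold changes of 0.46, 0.45, 0.54, 0.52 and 0.46. With 6 arrays in 2 groups, likeness of this kind mostly reflects the size of the difference between the groups.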

How the data were processed

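The deposited table holds 1 signal intensity per probe set and array for 31099 probe sets, made by the authors with MAS5 in GCOS per the submitters' processing notes; the sources used here give neither versions nor detection calls. A mean that leaves out 2% of signals at each end came to 500.15 or 500.16 on all arrays, so total RNA per cell cannot be read. At most 2 values were equal in any pair of arrays. Precision is limited by the number of arrays, 3 per group.

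Probe sets took their symbols from the platform annotation, checked by Entrez identifier against RefSeq (GRCr8), where 0 symbols changed. After leaving out 57 controls, the 18625 probe sets whose mean log2 signal lay above the 40th percentile (a signal of 67.2) were tested as log2 signal in R 4.3.3 with limma 3.58.1 (lmFit, eBayes with a variance prior following the mean), Benjamini-Hochberg adjusted over all of them, at a threshold of 0.05. The brightest probe set, by mean signal, stood for its gene. Means ± SD are of linear signals. The procedure was also run on simulated arrays with known changes, as a check of its working. The simulation changed far fewer probe sets than were called here, so it does not bear on the calls. The members, the lists and the alternatives were chosen with earlier results of these data known. Named are all members and, from each other list, up to 6 genes past the threshold by size of change (where fewer than 2 passed, also the 3 brightest tested), and the 5 nearest profiles. P3h1, P3h4, Crtap, P4ha1, Dnaja1, Hsp90ab1, Nr3c1, Serpinh1, P4hb, Hspa5, Ppie, Fkbp3, Fkbp8, Fkbp15 and Fkbpl were named after their values were seen. Alternatives were other normalizations, added constants, filters, variance priors, probe set means, the replicate block and leaving out each array.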

Additional observations from a re-analysis of the deposited data

How the results depend on the processing

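Across 17 alternatives, 170 values of the 10 genes were recomputed; 12 moved by more than the spread between replicates and 0 called values changed sign. Scaling to hybridization controls moved all 10, and the other 2 were Fkbp14 with 64 added to each signal (-0.87) and Fkbp2 with probe set means (-0.39). With that scaling the medians were -0.44 for the ER-resident and 0.06 for the cytosolic genes, and calls numbered 2 among Hsp90 partners and 3 each among glucocorticoid targets and Fkbp1a partners. With a constant variance prior 885 probe sets were called, against 2495, and calls numbered 3 among ER-resident genes, 4 among collagen partners, 2 among Hsp90 partners and 0 among glucocorticoid targets, where median centring and no filter also gave 0; the cause was not tested. Leaving out each array in turn gave 1200 to 2250 called probe sets, with 1624 without AEBSF culture 1, 1200, 1236 and 1505 without mineralizing cultures 1, 2 and 3. It gave class medians of -0.35 to -0.24 and 0.16 to 0.23, with 4 to 5 ER-resident and 1 cytosolic call. Calls numbered 2 to 3 among other isomerases, 6 to 7 among collagen partners and 5 to 8 among Hsp90 partners. They numbered 0 to 2 among glucocorticoid targets and 1 to 2 among Fkbp1a partners. The genes called also varied. Without AEBSF culture 3 the collagen calls were 6 lower and 1 higher, P3h4, and the isomerase Ppie was called higher in place of Cwc27. Replicate numbers did not pair the arrays (correlations of same-numbered deviations 0.011, -0.119 and -0.036); with the replicate block 1802 probe sets were called, with 4 ER-resident and 1 cytosolic gene among them, and Fkbp10, Cwc27 and P4ha1 were not past the threshold.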
